A study of Homo sapiens with 10 samples.

Results

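The response to a gene therapy vector was examined in 3 lines of A549, an established human lung adenocarcinoma cell line. The lines were wild type for ABCA3 (WT) or carried the ABCA3 variant E292V or E690K, and each was sequenced untreated and after transduction with VSVG LV-ABCA3:GFP. This makes 6 libraries in 3 pairs, out of 10 libraries in 5 pairs in the series. The vector is a lentivirus pseudotyped with the VSV G protein that carries ABCA3 fused to GFP, and cells received it overnight at a multiplicity of infection of 20. Untreated cells of the same line are the control of each pair. Each genotype is 1 line with 1 library per treatment, and how the lines were derived, which promoter drives the transgene and how long after the overnight exposure cells were harvested are not given in the sources used here. The series also holds an ABCA3 knockout line (KO) and an L101P line, grown and transduced in the same way.

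The 3 pairs were chosen on measured values. The KO pair was left out because EGFP went against its labels, from 37.9 scaled CPM (counts per 1000000 counts of the library, after TMM scaling) in the library labelled untreated to 0.0497 in that labelled transduced. The L101P pair was left out because its libraries differed most. Log2 changes of the 9481 genes that averaged 10 scaled CPM or more had a standard deviation of 0.24 in L101P, 0.19 in E292V, 0.18 in WT, 0.16 in KO and 0.11 in E690K. Choosing pairs in this way fixes part of the spread that any test of the vector uses. The tests below therefore describe these 3 pairs. KO and L101P values and the fit over the 5 lines are given for the calls as a group and for some of the genes.

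ABCA3 pumps lipid into the lamellar body, the organelle in which alveolar type 2 cells of the lung store surfactant phospholipid before they secrete it. Loss of its function causes surfactant deficiency and interstitial lung disease, and a vector that supplies the protein is meant to replace it. The VSV G protein binds receptors on the cell surface, the particle enters by endocytosis, and its genome is reverse transcribed and integrated, steps that cells can answer through nucleic acid sensors and interferon.

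The libraries held 75640815 to 94845294 counts, and 19561 to 20186 rows had at least 1 count. Epithelial identity was checked on 10 markers, of which 8 had more than 3 counts in each of the 6 libraries. The summed level of the 10 was 8403 to 11390 scaled CPM untreated and 7986 to 11293 transduced, mostly keratins such as KRT7, KRT8 and KRT18. The basal keratins KRT5 and KRT14 were at or below 0.513 scaled CPM, while TP63, another basal marker, was at 2.08 to 6.05, in cells labelled alveolar basal epithelial. Alveolar type 2 markers summed to 1.27 to 1.89 scaled CPM untreated and 1.35 to 1.55 transduced. Endothelial markers summed to at most 0.850, and KDR had 0 counts in the 6 libraries. Of 8 leukocyte markers, CD3E had 0 counts and CD68, which is not restricted to leukocytes, made most of the sum of 25.3 to 39.6 untreated and 28.0 to 38.9 transduced. Fibroblast markers summed to 35.7 to 98.0 scaled CPM untreated and 44.7 to 149.6 transduced. That sum was mainly COL1A1 and THY1, while COL1A2 was at or below 0.273 and DCN at or below 0.0270. In bulk RNA, fewer cells of a type and less RNA per cell cannot be told apart.

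The EGFP row helped to choose the pairs, so its values are a description. In WT it stood at 70.0 scaled CPM untreated (95% Wilson interval on read pairs 67.5 to 72.5) and 151 transduced (147 to 155). In E292V it was 20.3 (18.9 to 21.7) and 66.4 (64.1 to 68.7), and in E690K 16.7 (15.4 to 18.0) and 18.6 (17.3 to 20.1). The rise was 2.15-fold in WT, 3.22-fold in E292V and 1.11-fold in E690K, where the intervals of the pair overlapped. EGFP was thus present on both sides of every pair. Below, a change with the vector means the library labelled transduced against that labelled untreated, and not cells with EGFP against cells without it. The untreated WT level was above both E690K levels, and its interval overlapped that of transduced E292V cells.

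ABCA3 (ENSG00000167972.13, GRCh38 chromosome 16, 2275881 to 2340746, minus strand) was counted over the whole gene, which cannot separate the endogenous transcript from any reads of the vector. The vector sequence is not given in the sources used here, so whether its ABCA3 reads fall in this row is not known. The values below are those of the ABCA3 row. The row went from 357 to 603 scaled CPM in WT, from 969.8 to 1028 in E292V and from 908 to 1003 in E690K. The Wilson intervals did not overlap within any of the 3 pairs, and they cover counting error only. In WT the difference was 246 scaled CPM for ABCA3 beside 81.1 for EGFP, in E292V 57.8 beside 46.1, and in E690K 94.5 beside 1.96. These are not per length, so the rows are compared only across lines. E690K had the smallest EGFP difference but a larger ABCA3 difference than E292V. Over the 3 pairs ABCA3 had a log2 fold change of 0.33 (SE 0.08; adjusted p 0.0511, edgeR), which did not pass. In the pairs left out, ABCA3 changed by -0.32 in L101P and -4.50 in KO as labelled (log2), and the fit over the 5 lines gave -0.49 (edgeR adjusted p 0.935).

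**Figure D1:**
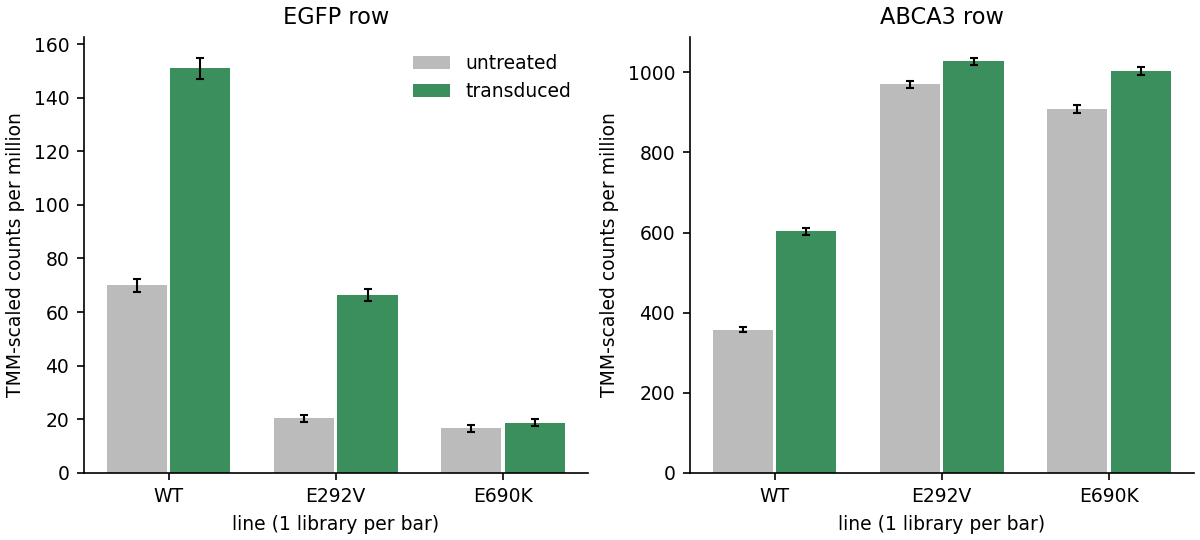
Level of the EGFP row (left) and the ABCA3 row (right) in TMM-scaled CPM, with 1 bar for each library of WT, E292V and E690K and error bars for the 95% Wilson interval on read pairs. EGFP reaches 151 in transduced WT cells and hardly differs within the E690K pair (16.7 and 18.6), while ABCA3 is higher in the transduced library of each line.

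The number of genes that differed within a pair stood in the same order as the EGFP fold, E292V first and E690K last. EGFP and the size of change within a pair were both used to choose the pairs, so this order is a description. Whether they are related was not tested. Past 1.5-fold were 149 of the 9481 genes in E292V (1.57%; 103 higher and 46 lower), 66 in WT (0.696%; 61 and 5) and 3 in E690K (0.0316%; 1 and 2). Past 2-fold were 21, 12 and 0 genes. In the pairs left out, 219 genes passed 1.5-fold in L101P (EGFP log2 change 4.64) and 37 in KO as labelled (-6.13), so that order did not extend to KO. With 1 library on each side these counts have no replicate check, and they grew to 943, 678 and 586 when genes with low counts were included. Changes of single genes correlated across the 9481 genes between WT and E292V (Pearson r 0.42, Spearman rho 0.29) and less between WT and E690K (0.15 and 0.11) or E292V and E690K (0.05 and -0.03). The points share the 2 libraries of their line and their normalization, and genes are not independent replicates.

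Over the 3 pairs, 14 of 29 tested genes of the extracellular matrix and mesenchymal list were called higher with the vector, and 3 of 19 of the mucin and secretory list were called lower. Of 17450 genes tested, 188 were called higher (1.08%) and 35 lower (0.201%) at an edgeR adjusted p under 0.05 with line as a block. The matrix gene with the smallest adjusted p was COL1A1, 1.59-fold higher, and the called lower gene with the largest fold change was KRT4, a keratin of mucosal epithelium, at 0.581 of its untreated level. Among all genes tested, 14.8% were higher and 13.7% lower in each of the 3 pairs. Of the called genes, 160 of the 188 higher and 34 of the 35 lower had the same direction in the 3 pairs. The exceptions were discordant in E690K, since every called gene had its direction in WT and in E292V. E690K also showed the smallest change of the 3 lines in 179 of these 194 concordant genes. Among all concordant genes of at least 10 scaled CPM, called or not, E690K showed the smallest change in 50.3%. The median log2 change of the called higher genes was 0.58 in WT, 0.70 in E292V and 0.14 in E690K, and that of the called lower genes -0.44, -0.51 and -0.22.

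These calls rest on the choice of pairs and on the block. With the L101P pair added, or over the 5 lines, 0 genes passed (919 and 1236 at an unadjusted p under 0.05), and with the KO pair added 133 passed. Without line as a block the count was 0 (315 at an unadjusted p under 0.05), and without the E292V pair it was 87. In the pairs left out, the called lower genes went mostly the other way in L101P: their median log2 change there was 0.37, and 8 of 35 were lower. Of the 188 called higher genes, 94 were higher in L101P (median 0.00) and 131 in KO as labelled (median 0.13).

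**Figure D2:**
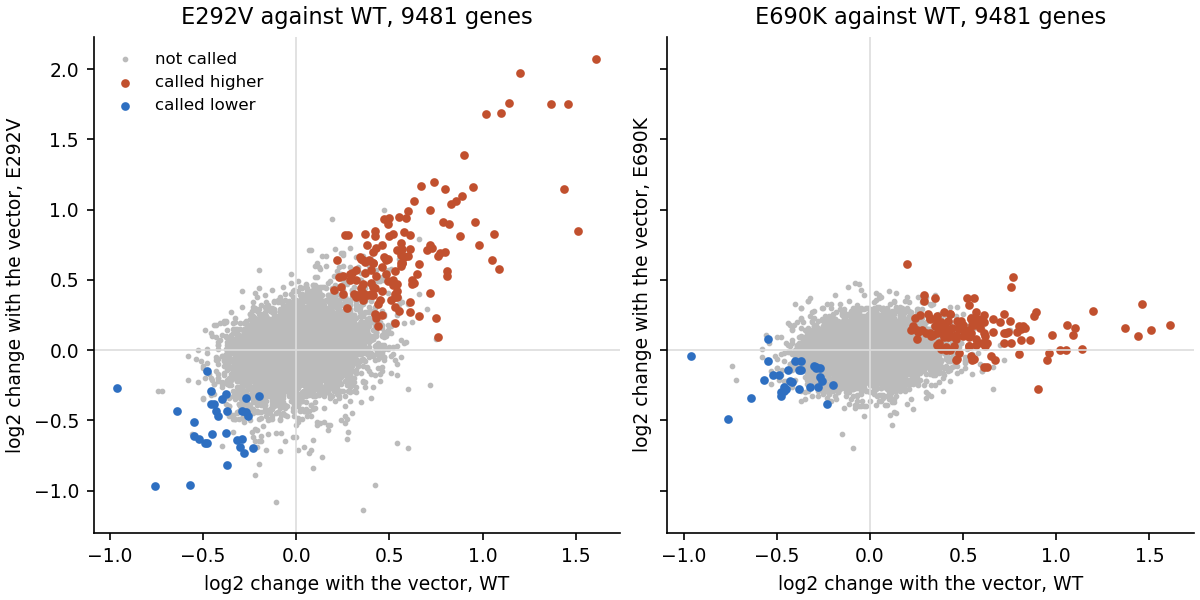
Log2 change with the vector in E292V (left) and E690K (right) against that in WT, with 1 point for each of 9481 genes and, in colour, the 170 of the 223 called genes that are among them. The called higher genes climb with the WT change in E292V (median over all 188, 0.70) and stay near the axis in E690K (0.14).

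DPYSL3, a cytoskeletal protein of the collapsin response mediator family (chromosome 5, 147390811 to 147510056), was at 65.8 and 201 scaled CPM in the WT pair, at 106 and 447 in the E292V pair and at 4.24 and 4.85 in the E690K pair. Over the 3 pairs it was 2.83-fold higher (SE 0.16 on the log2 scale, edgeR adjusted p 1.3e-06). The WT and E292V pairs carried the difference, and E690K cells had little DPYSL3 with or without the vector. In the pairs left out, DPYSL3 changed by -0.84 in L101P and 0.20 in KO as labelled (log2). The fit over the 5 lines gave 1.05 for it (edgeR adjusted p 0.445). TINAGL1, a secreted matrix glycoprotein, went from 8.91 to 21.0 scaled CPM in WT, from 9.33 to 38.1 in E292V and from 0.864 to 1.15 in E690K. FLRT2, an adhesion and guidance receptor, had the same form, at 8.08 and 23.1 in WT, 17.7 and 60.7 in E292V and 1.96 and 2.60 in E690K. In these genes the highest untreated level was below the lowest transduced level within WT and E292V, while across lines the treatments overlapped because E690K was low on both sides.

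MDGA1, a cell-surface glycoprotein of the immunoglobulin superfamily, was at 11.3 and 30.0 scaled CPM in WT, 13.2 and 45.5 in E292V and 6.38 and 7.21 in E690K. ANKRD1, a nuclear ankyrin-repeat protein known as a target of the YAP and TEAD factors, was at 7.37 and 16.8 in WT, 7.02 and 25.0 in E292V and 3.56 and 3.58 in E690K. PXDN, a peroxidase that crosslinks collagen IV, rose most in WT, from 10.7 to 31.5, against 43.4 to 78.4 in E292V and 5.71 to 6.34 in E690K. MARCH4, an E3 ubiquitin ligase, differed from these in its E690K level, which was the highest of the 3 lines at 33.7 untreated and 36.1 transduced, beside 5.14 and 14.8 in WT and 8.89 and 20.4 in E292V. In DPYSL3, TINAGL1, FLRT2, MDGA1, ANKRD1 and PXDN the untreated level was lowest in E690K. Whether untreated level and size of change are related was not tested. MN1, FLNC (filamin C), OLFML3 and CDH2 (N-cadherin) completed the named higher genes, with log2 fold changes of 0.69 to 0.79 (edgeR adjusted p 0.00016 to 0.00164). EGFP itself was the remaining one, and its call is no test of the vector, since its values helped to choose the pairs. With the DESeq2 Wald test, DPYSL3, TINAGL1, FLRT2, MDGA1, ANKRD1, MARCH4, PXDN and CDH2 did not pass, and without the E292V pair FLNC did not.

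Of the named lower genes, KRT4 (chromosome 12, 52806549 to 52814551) was at 19.8 and 11.4 scaled CPM in WT, 17.9 and 8.90 in E292V and 7.80 and 5.40 in E690K. It fell by 0.78 on the log2 scale (SE 0.11; adjusted p 0.00014, edgeR). In the pairs left out, KRT4 changed by 1.19 in L101P and 0.26 in KO as labelled (log2). The fit over the 5 lines gave -0.17 for it (edgeR adjusted p 0.953). AGR2, a disulfide isomerase needed for mucin folding (chromosome 7, 16791811 to 16833433), was at 355 and 248 in WT, 253 and 163 in E292V and 227 and 199.8 in E690K. It fell by 0.45 on the log2 scale (SE 0.07; adjusted p 0.00054, edgeR). The value turned to 0.03 with the L101P pair and to 0.10 over the 5 lines, since AGR2 changed by 1.53 (log2) in L101P. SPDEF, a transcription factor of goblet cells, was at 59.4 and 45.8 in WT, 33.6 and 18.8 in E292V and 38.2 and 36.2 in E690K, and it did not pass without the E292V pair. All 3 genes were lower in the transduced library of each line, SPDEF in E690K by the least (-0.08, log2).

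FGG, the gamma chain of fibrinogen (chromosome 4, 154604134 to 154612967), was at 159.9 and 103 scaled CPM in WT, 173 and 128 in E292V and 44.5 and 35.0 in E690K. Its neighbour FGB, the beta chain, was at 214 and 155, 244 and 187, and 68.5 and 57.2 in the same order of lines. FGA, the alpha chain, was added after its values were seen, and its log2 fold change was -0.29 (edgeR adjusted p 0.0246), beside -0.48 for FGG and -0.37 for FGB. The 3 chains of the fibrinogen molecule thus fell together. S100P, INSL4, NTS (neurotensin), MGAM, VAMP8, TJP3, GPX2 and APOH completed the named lower genes, with log2 fold changes of -0.59 to -0.43. NTS changed most in WT, where it went from 41.0 to 20.8 scaled CPM, against 49.4 to 40.8 in E292V and 6.24 to 6.05 in E690K. APOH and NTS did not pass without the WT pair, MGAM and TJP3 without the E690K pair, and APOH, MGAM, TJP3 and VAMP8 without the E292V pair.

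**Figure D3:**
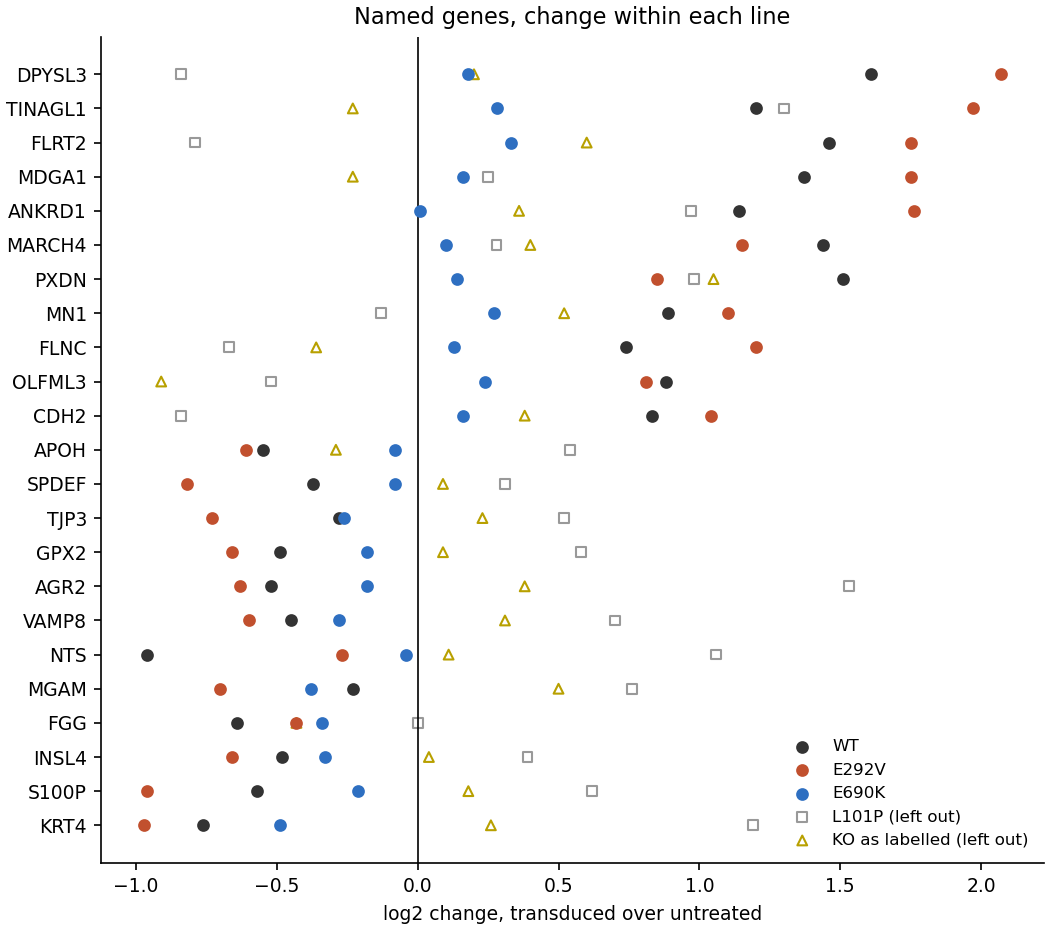
Log2 change with the vector within each line for the 23 named genes other than EGFP, ordered by the fold change over the 3 pairs, with the L101P and KO pairs as open symbols. Among WT, E292V and E690K, E690K lies closest to 0 for most genes (all 11 higher genes). L101P lies between 0.00 and 1.53 for the 12 lower genes.

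Ranking genes instead by their smallest change over the 3 pairs, whatever their p, brought forward genes that moved in E690K as well. COL1A1 led, at 26.1 and 44.9 scaled CPM in WT, 72.6 and 117 in E292V and 21.8 and 31.4 in E690K, with no change below 0.52 on the log2 scale. It encodes the alpha 1 chain of collagen I (chromosome 17, 50183289 to 50201632), and it rose by 0.67 on the log2 scale (SE 0.07; adjusted p 2.5e-06, edgeR). In L101P COL1A1 changed by -0.65, and the fit over the 5 lines gave 0.26 (edgeR adjusted p 0.840). GALNT14, a mucin-type glycosyltransferase, and EFEMP1, a fibulin of elastic fibres, followed with log2 fold changes of 0.60 and 0.55 (edgeR adjusted p 0.00037 and 0.0004). EFEMP1 changed in the same direction in L101P, by 1.43, and its edgeR adjusted p of 0.109 over the 5 lines equalled the smallest of that fit. HTR1D, PDZD4, IRAK2, ELFN2 and, through the first rule too, FLRT2 and TINAGL1 were called as well, while CCNK did not pass (log2 fold change 0.33, edgeR adjusted p 0.0781). On the lower side KRT4, FGG, INSL4, AQP3, VAMP8, TJP3, BCAS1, FGB and the noncoding gene AL445524.1 were called, and RNF113A did not pass (-0.27, edgeR adjusted p 0.268).

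The largest changes within a single line have no replicate. In E292V, COL4A6, a chain of collagen IV, went from 18.0 to 7.85 scaled CPM and the trefoil peptide TFF1 from 1.93 to 0.649, while in WT they went from 14.6 to 18.9 and from 2.79 to 2.55. TFF1 was far higher in E690K, at 38.7 untreated and 39.4 transduced. Only through E690K did its mean reach 10 scaled CPM (14.3), and its E292V libraries held 156 and 62 counts. In E690K the largest losses were GEMIN2, a component of the SMN complex, from 18.9 to 11.5, TRMT11, a tRNA methyltransferase, from 14.3 to 9.27, and SRBD1 from 22.7 to 15.6. Its largest gains were NIPAL4 (9.26 to 14.4), which was also called over the 3 pairs, COL1A1 and PLEKHO1 (8.57 to 12.1). WT and E292V moved by at most 0.16 on the log2 scale for GEMIN2, TRMT11 and SRBD1. Whether these lines differed in their response was not tested.

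Of 22 gene lists, that of extracellular matrix and mesenchymal genes held the most called members: 14 of 29 tested were called higher and 0 lower. Of all genes tested, 1.08% were called higher and 0.201% lower. The median log2 fold change of the list was 0.36, beside 0.00 over all genes tested. In the 3 pairs 19 of 29 (65.5%) were higher, beside 14.8% of all genes tested. By line the median was 0.48 in WT, 0.50 in E292V and 0.11 in E690K. The collagen genes called were COL1A1, COL4A1, COL4A2, COL5A1, COL6A1 and COL6A2. COL5A1 was at 133 and 277 scaled CPM in WT, 234 and 417 in E292V and 262 and 297 in E690K. Cell adhesion and matrix assembly genes in the list were FN1 (fibronectin), which had 66.0 and 128 in WT, 93.2 and 176 in E292V and 60.4 and 59.4 in E690K, and SPARC, LOXL2, TGFBI, ITGB6, CDH2 and MMP2. FN1, SPARC, ITGB6, MMP2 and LOXL2 moved by no more than 0.15 in E690K in either direction. Vimentin (VIM) did not pass (0.26, edgeR adjusted p 0.0618), nor did the transcription factors SNAI2 (0.61, 0.354), ZEB1 (0.18, 0.472) and ZEB2 (0.41, 0.906). The list count was 12 without the WT pair, 10 without E292V, 14 without E690K, 7 with the DESeq2 Wald test and 0 with L101P added. The list's median change was -0.01 in L101P and 0.14 in KO as labelled.

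**Figure D4:**
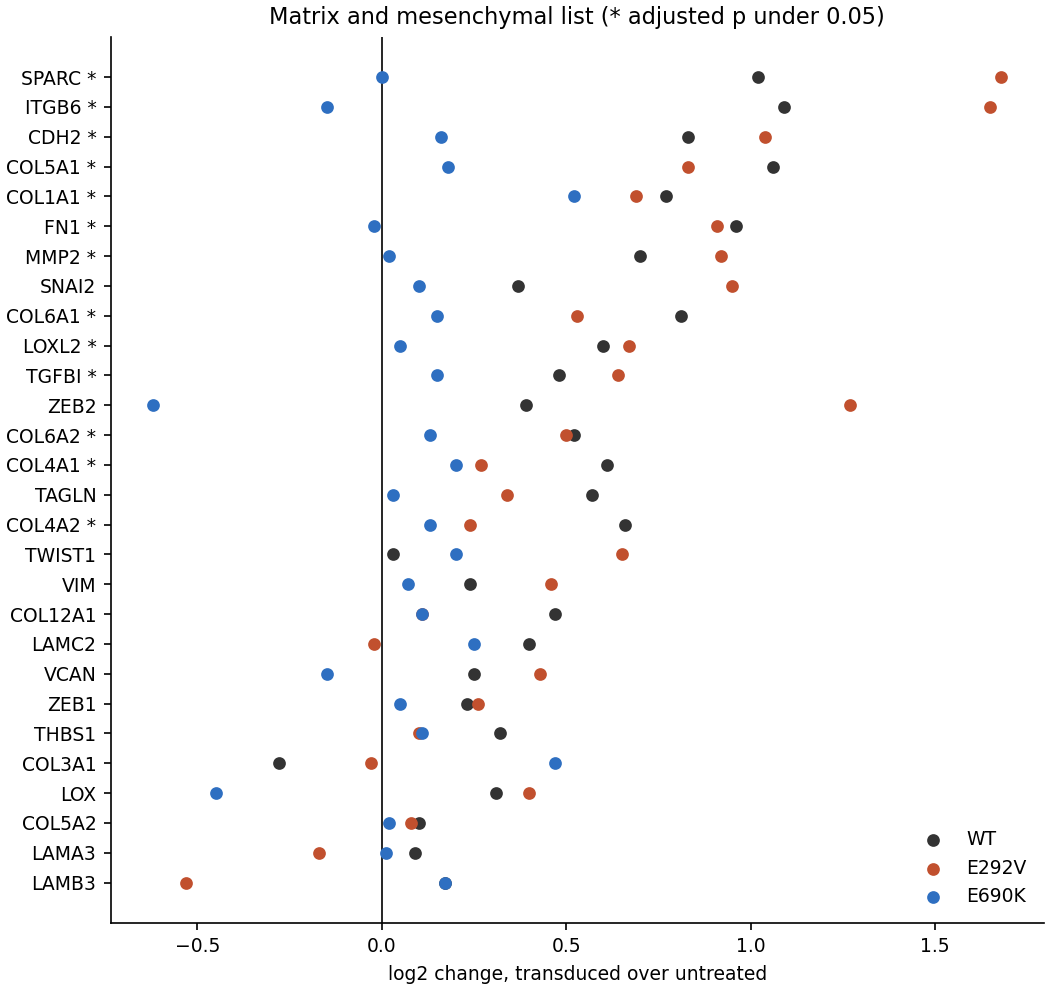
Log2 change with the vector in WT, E292V and E690K for 28 of the 29 tested genes of the matrix and mesenchymal list, ordered by fold change, with asterisks on the 13 called among them. WT and E292V lie to the right of 0 for most genes, and in E690K the called genes shown lie between -0.15 and 0.20 apart from COL1A1 (0.52).

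In the list of mucins and secretory epithelium, 3 of 19 tested genes were called lower (AGR2, SPDEF and SLPI, a secreted protease inhibitor) and 0 higher. Of all genes tested, 0.201% were called lower and 1.08% higher. The median of the list was -0.23. By line the median was -0.07 in WT, -0.63 in E292V and -0.15 in E690K. In the 3 pairs 6 of 19 (31.6%) were lower, beside 13.7% of all genes tested. The gel-forming mucins differed between lines: MUC5AC changed by 0.60 in WT and -0.70 in E292V, and MUC5B by 0.42 and -0.96 (log2), and neither passed. Without the E292V pair 1 gene was called, and without the WT pair 6. In L101P the median of the list was 1.30, and with that pair added the median became 0.30 and no member was called. In KO as labelled the median was 0.38, and with that pair added it became 0.01 with no member called.

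The list of antioxidant genes controlled by NRF2, a pathway that is constitutively active in A549 because these cells carry a mutated KEAP1, had 4 of 28 genes called lower and 0 higher, beside 0.201% and 1.08% of all genes tested. These were GPX2, a glutathione peroxidase, the aldo-keto reductases AKR1C2 and AKR1C3, and OSGIN1. GPX2 was at 775 and 553 scaled CPM in WT, 452 and 286 in E292V and 509 and 448 in E690K. The AKR1C genes are near-identical paralogs, and how shared reads were assigned is not given in the sources used here. In all, 11 of the 28 (39.3%) were lower in the 3 pairs, beside 13.7% of all genes tested, and 0 were higher, with a median of -0.06. Without the E292V pair 1 member was called, with the KO pair added 1, and with the L101P pair added 0.

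Counts of calls in the lists of virus detection were near those over all genes tested, of which 1.08% were called higher and 0.201% lower. Of 31 tested interferon-stimulated genes, 0 were called higher and 1 lower, the exonuclease ISG20 (log2 fold change -0.39, edgeR adjusted p 0.0471), which did not pass when any of the 3 pairs was left out. The median was -0.06, and 14 of 31 (45.2%) were lower and 3 (9.68%) higher in the 3 pairs, beside 13.7% and 14.8% of all genes tested. ISG15, an interferon-induced ubiquitin-like protein, was among the 3 higher ones, at a low level of 2.23 to 3.85 scaled CPM. It differed by 0.15 on the log2 scale (SE 0.176, edgeR adjusted p 0.922). None of 25 nucleic acid sensors and retroviral restriction factors was called (median 0.02), and none of 23 NF-kB and inflammatory genes was (median 0.06). CGAS, the cytosolic DNA sensor, had a log2 fold change of 0.10 (edgeR adjusted p 0.871) and IRF3 -0.09 (0.780). The list of VSV-G receptors and endocytic entry had 0 of 28 called. These p-values rest on 3 pairs and do not show that the genes stayed level.

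The lists of lipid handling, the function of ABCA3, had calls near the share over all genes tested (1.08% higher and 0.201% lower). Among 15 tested lipid transporters and sterol exporters 1 was called, NPC2, which carries cholesterol out of the lysosome: it was at 76.7 and 136 scaled CPM in E292V and at 84.9 and 92.9 in E690K, and changed by 0.26 on the log2 scale in WT (log2 fold change over the 3 pairs 0.41, edgeR adjusted p 0.00972). NPC2 did not pass without the E292V pair or with the DESeq2 Wald test. None of the 25 cholesterol, 28 fatty acid and phospholipid, or 33 lysosome and lamellar body genes was called, with medians of 0.05, 0.05 and -0.02. In the cholesterol list 9 of 25 were higher and 2 lower in the 3 pairs, beside 14.8% and 13.7% of all genes tested. By line the median of that list was 0.00 in WT, 0.10 in E292V and 0.06 in E690K. In the pairs left out it was 0.01 in L101P and -0.17 in KO as labelled. LSS was among the higher ones (0.25, edgeR adjusted p 0.0730), but changed by -0.20 in L101P and -0.35 in KO as labelled (log2). Surfactant protein transcripts were hardly detected: SFTPA1, SFTPA2 and SFTPB were at or below 0.133 scaled CPM, SFTPC at or below 0.260 and SFTPD at or below 0.477. In the surfactant and alveolar type 2 list the pioneer factor FOXA1 fell (log2 fold change -0.32, edgeR adjusted p 0.0212) and CAV1, a marker of type 1 cells, rose (0.34, 0.0212), CAV1 with no change in E690K. Without the E292V pair neither passed, and without the E690K pair FOXA1 did not. Of 28 p53 response genes and 29 genes of the unfolded protein response 0 were called, as for the S phase, mitosis, glycolysis and hypoxia, histone, metallothionein and heat shock lists.

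Of 31 immediate early genes, 2 were called higher, beside 1.08% of all genes tested. They were the matricellular protein gene CYR61 (log2 fold change 0.35, edgeR adjusted p 0.00745) and the AP-1 member FOSL1 (0.31, 0.0235). Neither passed without the E292V pair, and none of the list did with the L101P pair added. CYR61 was at 44.2 and 55.1 scaled CPM in WT, 52.5 and 74.6 in E292V and 51.0 and 59.4 in E690K, so its lowest transduced level lay above its highest untreated level. The 13 mitochondrially encoded genes were higher in the 3 pairs without exception, beside 14.8% of all genes tested. Over the 3 pairs their median was 0.17, and 0 of them passed (smallest edgeR adjusted p 0.0617, for MT-ND5). Their median was 0.28 in WT, 0.06 in E292V and 0.16 in E690K, and they share a genome and long precursor transcripts. In the pairs left out, that median was -0.04 in L101P and 0.06 in KO as labelled. The mitochondrial share of counts went from 4.27% to 5.24% in WT, from 4.62% to 4.77% in E292V and from 5.11% to 5.52% in E690K. That share went from 4.82% to 4.59% in L101P and from 5.50% to 5.71% in KO as labelled. Its part in the changes of other genes was not tested.

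**Figure D5:**
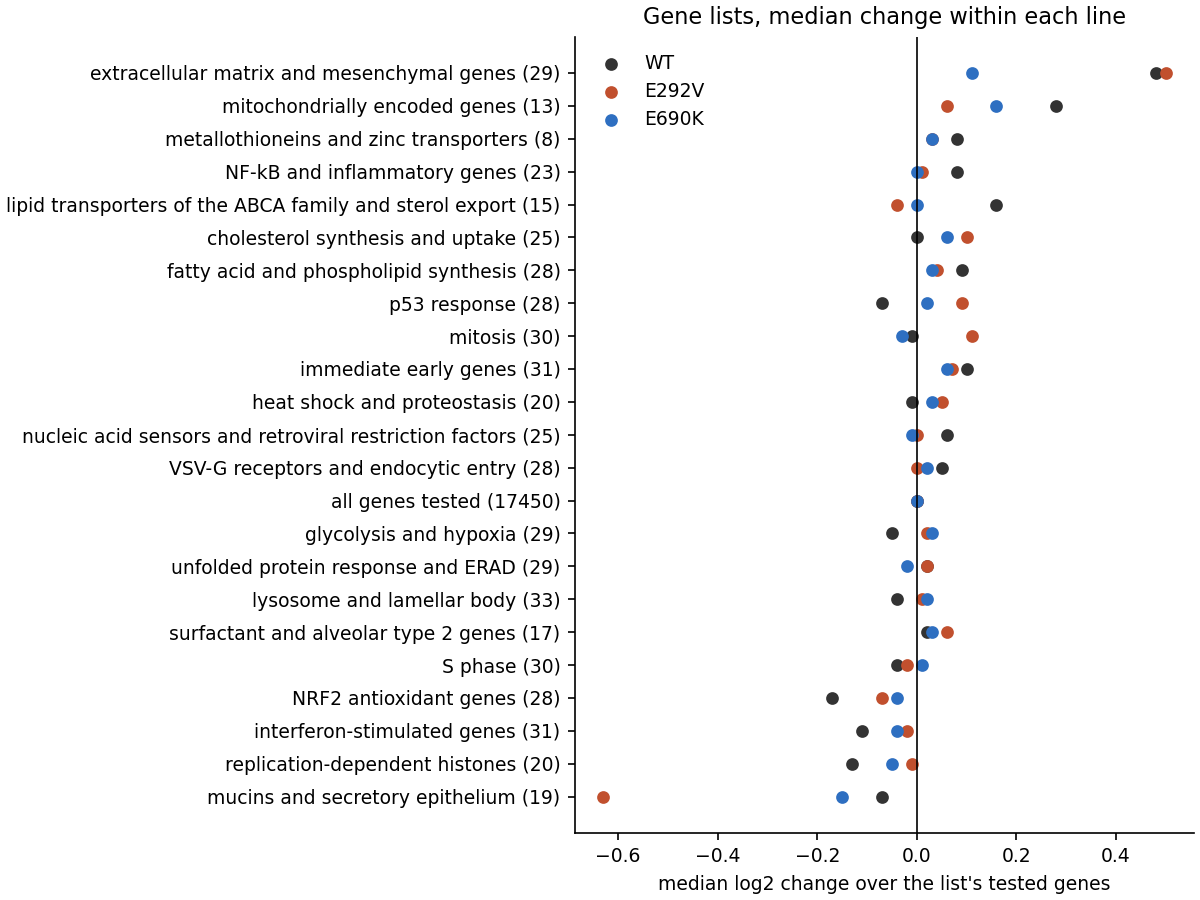
Median log2 change with the vector within WT, E292V and E690K for each of the 22 gene lists and for all genes tested, with the number of tested genes in brackets. The matrix and mesenchymal list lies to the right in WT (0.48) and E292V (0.50), and the secretory list lies to the left in E292V (-0.63).

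Because ANKRD1 and CYR61 are known targets of the TEAD factors, and after their values were seen, promoters were searched for the letters of 5 motifs. The promoters are the 250 bases before the start in RefSeq (GRCh38.p14) of the 8511 tested genes with a single entry in that table. The TEAD letters GGAATG on either strand stood in 19 of 85 called higher genes (22.4%), 3 of 23 called lower genes (13.0%), 9.51% of the tested genes and 12.1% of all 22114 single-entry promoters. The letters TGANTCA of the AP-1 motif stood in 4.71%, 8.70%, 4.17% and 6.86% in that order, CAGGTG (an E-box) in 11.8%, 26.1%, 16.3% and 17.6%, and CCAAT in 23.5%, 34.8%, 35.5% and 33.4%, each on either strand. TATAAA on the coding strand stood in 5.88%, 8.70%, 4.14% and 7.72%. Median GC content was 70.0% in the called higher and 54.8% in the called lower genes, beside 64.8% in the tested genes. Among the genes with TEAD letters were ANKRD1, SPARC, FLNC, MDGA1 and OLFML3. ANKRD1 prompted the search and is counted in the 19, so the TEAD share is a description and was not tested. CYR61 was not searched. The 2 with the largest fold change among those of at least 10 scaled CPM, called and concordant in the 3 pairs are shown as examples of where the letters lie. They are MDGA1 (chr6:37697884-37698133, minus strand) and ANKRD1 (chr10:90921088-90921337, minus strand), printed 5′ to 3′ with each motif match in capitals.
MDGA1: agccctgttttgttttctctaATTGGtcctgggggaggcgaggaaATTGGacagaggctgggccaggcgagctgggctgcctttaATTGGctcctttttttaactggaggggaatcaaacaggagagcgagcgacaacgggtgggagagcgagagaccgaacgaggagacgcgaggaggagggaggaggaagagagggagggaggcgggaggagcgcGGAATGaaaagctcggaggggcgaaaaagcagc
ANKRD1: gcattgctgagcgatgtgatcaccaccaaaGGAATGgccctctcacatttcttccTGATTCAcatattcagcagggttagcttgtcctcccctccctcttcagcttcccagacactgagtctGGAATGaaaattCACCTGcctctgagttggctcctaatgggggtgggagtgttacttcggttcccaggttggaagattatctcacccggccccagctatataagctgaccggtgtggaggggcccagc
MDGA1 has 1 TEAD match and 3 CCAAT matches read from the other strand, and ANKRD1 has 2 TEAD matches, 1 AP-1 match and 1 E-box match. A match is a string of letters and not a site shown to be bound.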

How the data were processed

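The authors deposited a table of whole-number counts for 33551 rows and 10 libraries. The submitters' processing notes name GRCh38, featureCounts, Subread, edgeR and limma, without versions or roles. Annotation, strand setting and the handling of shared reads are not given in the sources used here, and exons of 30 of the 120 named genes overlap another annotated gene, among them MARCH4, FLNC, CDH2, SPARC, COL4A2, FOXA1, MGAM, BCAS1, GALNT14 and CCNK. Of the low counts (1 to 10), 80.6% to 81.9% were even in the 6 libraries, so intervals use counts divided by 2 as read pairs. They cover counting error only. Coordinates are from GENCODE release 29 (98.7% of row names matched).

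The 6 libraries were fitted with edgeR 4.0.16 in R 4.3.3 (filterByExpr, TMM, glmQLFit and glmQLFTest, line as a block, 2 residual degrees of freedom, Benjamini-Hochberg threshold 0.05). The standard error is the log2 fold change divided by the square root of F. The common dispersion was 0.01019. Pairing comes from the cell lines: deviations of same-line libraries from their treatment means correlated at 0.57 in WT, 0.76 in E292V and 0.81 in E690K. Scaled CPM are counts per 1000000 of the TMM-scaled library, and changes within a line use log2 with a prior of 0.5 CPM. L101P and KO values use factors from the 10 libraries. The procedure was tested on simulated data with the same fold change in every line, a single dispersion and no choice of pairs. That test therefore does not cover effects that differ between lines or the choice of pairs. All 10 sample columns of the table were used.

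Genes named by rule had a mean of at least 10 scaled CPM, apart from called list members and the genes always included. They were the 12 higher and 12 lower called genes with the largest fold change and the same direction in the 3 pairs, the 10 higher and 10 lower with the largest smallest change, the 3 higher and 3 lower with the largest change in each line, and in each list the called genes or else the 3 with the largest change. Called list members could have any level, and ITGB6, MMP2 and SLPI averaged 4.87, 8.65 and 9.36 scaled CPM. EGFP, ABCA3, tdTomato and the surfactant protein genes were always included, at any level. ISG15, VIM, SNAI2, ZEB1, ZEB2, MUC5AC and MUC5B were named outside these rules, as were FGA and some cell type markers. Members and lists were chosen with earlier results of these data known. Separate cultures are not stated. The p-values use a spread that is partly shared across genes, so a small p does not show that the 3 lines changed alike. DPYSL3, for one, changed by 1.61 in WT, 2.07 in E292V and 0.18 in E690K (log2), with an SE of 0.16. Alternatives were DESeq2 1.42.0, limma 3.58.1 (voom), other scalings, filters and priors, no block, and other choices of pairs. A few genes of the lists are counted in them but not reported here by name.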

Additional observations from a re-analysis of the deposited data

Results flagged for a closer look

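A row for tdTomato, which the labels do not mention, held 236 to 712 counts in the 6 libraries, far above the 3 counts that a reading of 0 allows. It stood at 3.83 scaled CPM untreated and 2.87 transduced in WT, at 8.78 and 7.46 in E292V, and at 7.45 and 8.70 in E690K. The direction differed between lines, and over the 3 pairs the log2 fold change was -0.13 (SE 0.14, edgeR adjusted p 0.901). Both KO libraries had 0 counts, with upper Wilson bounds of 0.102 scaled CPM untreated and 0.0946 transduced.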

How the results depend on the processing

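The count of 223 called genes was 205 with DESeq2 median-ratio factors and 280 with at least 10 counts in every library, and within 1.5 times of 223 with counts divided by 2. It moved to 137 with library totals alone, 385 with no filter on low counts, 125 with the DESeq2 Wald test, 362 with limma-voom, 133 with the KO pair, 0 with the L101P pair and 0 with both pairs added. With no replicate block, that is without the pairing by line, it was 0. Leaving out a pair gave 87 to 294, and 76, 135 and 194 of the 223 genes were called without E292V, WT and E690K. Over the 5 lines 0 genes passed, against 237 with no filter, 113 with the DESeq2 Wald test and 26 with limma-voom, settings that were added after seeing the data. The cause of these moves was not tested. Of the 24 genes named from the calls, 24 kept their direction in every fit without L101P and 23 in the fits with it: AGR2 became 0.03 with the L101P pair and 0.10 with both pairs added. Without a filter, genes past 1.5-fold were 678 in WT, 943 in E292V and 586 in E690K, and past 2-fold 61, 120 and 28. With at least 10 counts in every library they were 505, 724 and 376, and 50, 92 and 20. A prior of 2 CPM left 1 gene past 1.5-fold in E690K. Library totals alone moved the median of all genes by -0.02 (log2). Each line is 1 pair, so differences between lines were not tested.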
